A study of Homo sapiens with 5 samples.

Results

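The miR-99/100 and miR-125 families were examined in 5 transformed human hematopoietic cell lines. The families were represented by 6 of the 654 human miRNA probes of the nCounter panel, chosen by name: hsa-miR-99a, hsa-miR-99b, hsa-miR-100, hsa-miR-125a-5p, hsa-miR-125a-3p and hsa-miR-125b. The lines were Meg-01 (megakaryoblastic), K562 (erythroleukemic), U937 (monocytic), Jurkat (T-lymphoblastic) and Raji (B-lymphoblastic), for which the labels name no treatment, and each is a single established line. Total RNA of each line, 100 ng, was counted without amplification in 1 sample, so no difference between lines was tested, and all intervals below are 95% intervals for counting error only. In such bulk RNA, fewer expressing cells and less RNA per cell cannot be told apart.

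These miRNAs are encoded in 3 related clusters, in each of which a miR-99 or miR-100 hairpin, a let-7 hairpin and a miR-125 hairpin follow one another. miRNAs of the miR-99/100 family are known to restrain mTOR and IGF1R signaling, and miR-125 miRNAs are known for roles in hematopoietic stem cells and, when overexpressed, in leukemia. miR-125b-2 in particular has been linked to acute megakaryoblastic leukemia. The study selected miR-125a-5p to ask whether the endogenous level of a miRNA can control a transgene, with Meg-01 and K562 set against the lymphocytic lines Jurkat and Raji.

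In RefSeq (GRCh38.p14), the first cluster holds MIR99B at chr19:51692612-51692681, MIRLET7E at chr19:51692786-51692864 and MIR125A at chr19:51693254-51693339, all on the plus strand and all inside the span of the SPACA6 gene. The second holds MIR99A at chr21:16539089-16539169, MIRLET7C at chr21:16539828-16539911 and MIR125B2 at chr21:16590237-16590325, on the plus strand inside the long non-coding MIR99AHG gene. The third holds MIR100 at chr11:122152229-122152308, MIRLET7A2 at chr11:122146522-122146593 and MIR125B1 at chr11:122099757-122099844, on the minus strand inside the long non-coding MIR100HG gene. The chromosome 19 cluster spans 728 bases, against 51237 bases for the chromosome 21 cluster and 52552 bases for the chromosome 11 cluster.

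**Figure D1:**
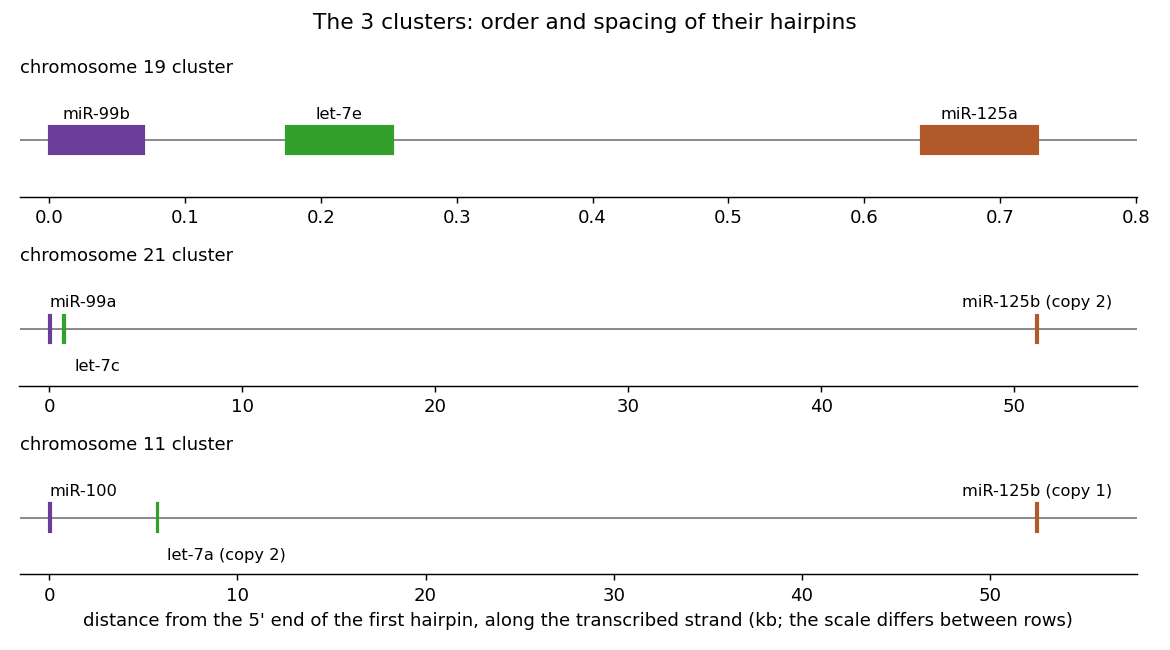
Maps of the 3 clusters, drawn to scale within each row, with the distance from the 5′ end of the first hairpin in kb on the x axis and boxes for hairpins. The chromosome 19 hairpins lie within 728 bases, while miR-125b lies over 51 kb from miR-99a on chromosome 21 and over 52 kb from miR-100 on chromosome 11.

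The mature sequences from RefSeq are shown because the families differ by few bases outside a shared seed (bases 2 to 8, in capitals), so probes for them have to tell near-identical targets apart. The seed of the miR-99/100 family is ACCCGUA, that of miR-125a-5p and miR-125b is CCCUGAG, and miR-125a-3p, from the other arm of the MIR125A hairpin, has a seed of its own. Probes listed without an arm were taken as the 5p form.
miR-99b: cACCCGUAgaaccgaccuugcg
miR-99a: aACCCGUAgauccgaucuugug
miR-100: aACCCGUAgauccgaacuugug
miR-125a-5p: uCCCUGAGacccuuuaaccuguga
miR-125b: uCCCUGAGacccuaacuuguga
miR-125a-3p: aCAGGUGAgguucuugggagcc

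miR-99a and miR-100 differ by 1 base, U16A (miR-99a base first, counted from the 5′ end). miR-99b differs from miR-99a by 4 bases, C1A, A11U, C16U and C21U (miR-99b base first). miR-125a-5p, with 24 bases, and miR-125b, with 22, share their first 13 and last 5 bases. Both miR-125b hairpins give the same mature sequence, so its probe cannot say which of chromosomes 11 and 21 it came from.

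Counts summed over the human probes were 66892 to 130048 per line, with a median of 105224. Normalized counts were obtained by dividing out, for each line, the geometric mean over the 100 most abundant miRNAs, with factors from 0.741 in Meg-01 to 1.58 in Raji. A probe was called detected above the mean plus 2 SD of the 8 negative control probes of its line, which was 34.6 to 45.9 raw counts, or 28.2 (Jurkat), 31.2 (Meg-01), 36.4 (U937), 42.3 (K562) and 72.4 (Raji) normalized counts. As a check of the labels, miR-142-3p, a general blood-cell miRNA, was detected in all 5 lines, the erythroid miR-451 and miR-144 were detected in Meg-01 and K562, the lymphoid miR-150 in Jurkat alone, and 16 of 34 Epstein-Barr virus probes in Raji, a line known to carry that virus, against 5 to 9 in the other lines. These markers did not tell Meg-01 from K562. miR-144 was higher in Meg-01 (727 normalized counts) than in the erythroleukemic K562 (264). miR-451 read 95.6 and 72.2, a difference whose counting error was not computed. miR-126 and miR-223 were high in both. miR-223 was detected in all 5 lines, from 97.9 in Raji to 2798 in U937. miR-126 was also detected in Jurkat (79.7) and U937 (100), so none of these markers singled out U937.

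After subtraction of the threshold, the summed signal of the members was largest in Meg-01. In K562 it came almost entirely from miR-99b and miR-125a-5p. Of the 6 members, 4 were detected in Meg-01, where 27.2% of all human probes were detected, 4 in K562 (27.5% of all probes), 2 in Jurkat (35.0%), 2 in Raji (17.0%) and 1 in U937 (28.3%). Those in Meg-01 were miR-99a, miR-99b, miR-125a-5p and miR-125b, which all had an interval above the threshold. Of the 13 detections in the 30 combinations of member and line, 8 had such an interval: the 4 of Meg-01, miR-99b and miR-125a-5p in K562, miR-125a-5p in U937 and miR-125b in Raji. Among all human probes an interval above the threshold was found for 21.9% (Jurkat), 20.8% (Meg-01), 18.5% (K562), 17.4% (U937) and 13.1% (Raji). In normalized counts the highest line exceeded the next beyond counting error for 4 of the 6 members and for 28.3% of all 654 probes. After subtraction of the threshold the members made up 1.59% of the human miRNA signal of Meg-01, 0.433% of that of K562, 0.0738% in U937, 0.0421% in Raji and 0.00798% in Jurkat.

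**Figure D2:**
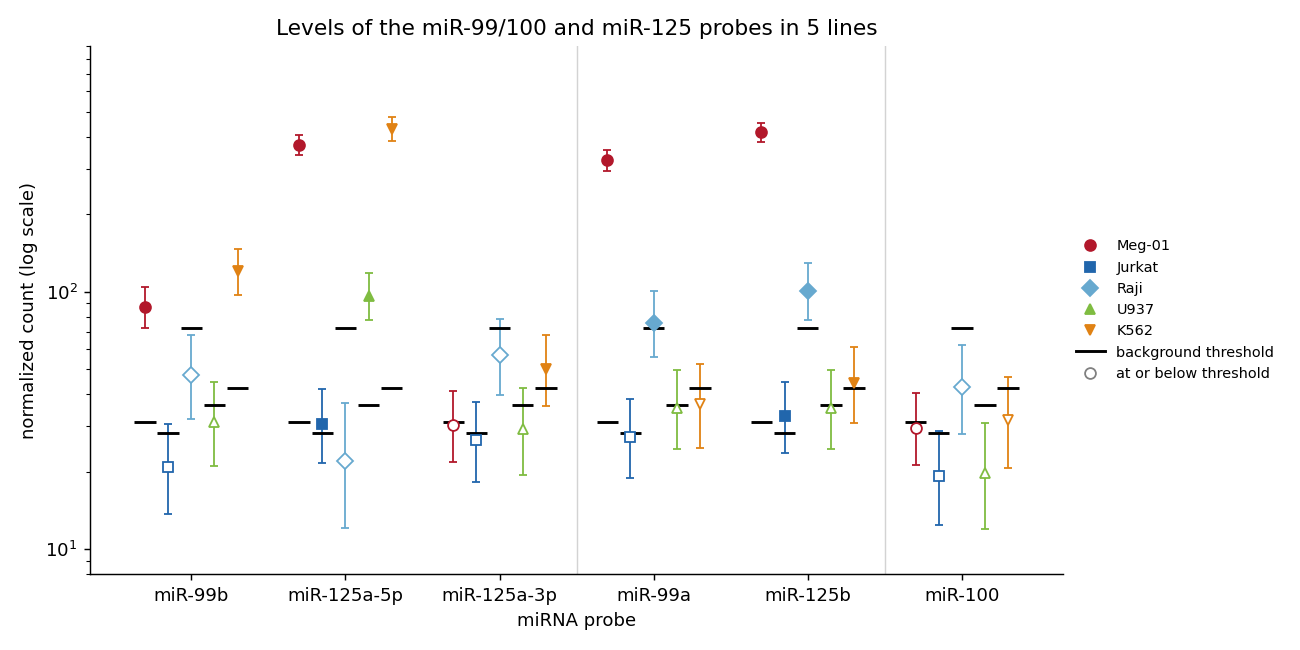
Normalized counts (y axis, log scale) of the 6 members (x axis) in the 5 lines, with 95% Poisson intervals, short black lines for the background threshold of each line and open symbols for values at or below it. Meg-01 stands clear of its threshold for 4 members, K562 for miR-99b and miR-125a-5p, and miR-100 is at or below the threshold in every line.

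hsa-miR-125a-5p, of the chromosome 19 cluster, had 500 raw counts in Meg-01 (457 to 546) and 350 in K562 (314 to 389). U937 had 92 (74.2 to 113), Jurkat 38 (26.9 to 52.2) and Raji 14 (7.65 to 23.5). Meg-01 and K562 were thus high and U937 intermediate. Jurkat passed its threshold by 2.40 normalized counts with an interval that covered it, and Raji was below its own. Jurkat was 2.71-fold above Raji in raw counts (1.44 to 5.42) and 1.38-fold in normalized counts (0.733 to 2.77). In normalized counts Meg-01 was 3.86-fold above U937 (3.09 to 4.88), and U937 was 3.14-fold above Jurkat (2.13 to 4.71). It ranked 31 of the 654 human probes in Meg-01, 30 in K562 and 70 in U937. Its level in U937 was 2.64 times the threshold of that line, and its interval of 77.4 to 118 normalized counts lay above it.

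hsa-miR-99b, at the 5′ end of the same cluster, had 118 raw counts in Meg-01 (97.7 to 141), 98 in K562 (79.6 to 119), 30 in U937 and in Raji, and 26 in Jurkat. It was thus detected in the same high pair of lines, and in U937, where miR-125a-5p was detected, it was below the threshold. In Meg-01 and K562 it stood 2.80-fold and 2.83-fold above the thresholds. Since the miR-99b count of U937 was at background, its raw ratio to miR-125a-5p there, 0.326 (0.208 to 0.497), is limited by that background.

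Which of Meg-01 and K562 was higher for these 2 miRNAs depended on the scaling. In normalized counts K562 exceeded Meg-01 by 1.15-fold for miR-125a-5p (1.004 to 1.33) and 1.37-fold for miR-99b (1.04 to 1.81). In raw counts Meg-01 was higher, by 1.43-fold (1.24 to 1.64) and 1.204-fold (0.913 to 1.59). Their balance within a line does not involve scaling, and it was alike in both: miR-99b had 0.236 times the raw count of miR-125a-5p in Meg-01 (0.191 to 0.289) and 0.280 times in K562 (0.221 to 0.351). The K562 ratio was 1.19 times that of Meg-01, with an interval of 0.868 to 1.62.

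let-7e, encoded between them, was detected in all 5 lines, with raw counts of 260 (Meg-01), 163 (K562), 149 (U937), 97 (Jurkat) and 61 (Raji). It kept the same proportion to miR-125a-5p in the high pair, with a ratio of 0.520 in Meg-01 and 0.466 in K562 (K562 over Meg-01 0.896, 0.700 to 1.14). In U937 the ratio was 1.62, which was 3.11 times that of Meg-01 (2.28 to 4.26). The ratio was also higher in Jurkat, at 2.55, and in Raji, at 4.36, where miR-125a-5p was at background. The let-7a probe, whose target differs from let-7e by the 1 base G9U (let-7e base first), had 1083, 256, 911, 2143 and 774 raw counts in Meg-01, K562, U937, Jurkat and Raji. The part of let-7a in the let-7e counts was not tested.

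hsa-miR-125a-3p, the other arm of the MIR125A hairpin, had 28 to 41 raw counts, at or near background in all lines. It was 41 in both Meg-01 and K562, which was detection by 7.80 normalized counts in K562, with an interval that covered the threshold, and none in Meg-01. The raw count of miR-125a-5p was 12.2 times that of miR-125a-3p in Meg-01 (8.86 to 17.2) and 8.54 times in K562 (6.17 to 12.1). Because the 3p counts were at background, these ratios are limited by the background of the probe.

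hsa-miR-99a, of the chromosome 21 cluster, had 437 raw counts in Meg-01 (397 to 480), against 48 in Raji (35.4 to 63.6), 34 each in Jurkat and U937, and 30 in K562. It was high in Meg-01 alone. In normalized counts its level of 324 in Meg-01 was 10.4 times the threshold, while Raji exceeded its threshold by 3.37 and the other 3 lines were below theirs. K562, where miR-99b was detected, had miR-99a at background. Meg-01 was 8.83-fold above K562 (6.10 to 13.2) before subtraction, and since K562 was at background this is a fold over background.

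hsa-miR-125b had a like profile, with 560 raw counts in Meg-01 (515 to 608), 64 in Raji (49.3 to 81.7), 41 in Jurkat, 36 in K562 and 34 in U937. Its 415 normalized counts in Meg-01 ranked 29 of the human probes by count. Raji was second, with 101 normalized counts (77.8 to 129) against a threshold of 72.4. The excess of Raji over K562 was 2.29-fold in normalized counts (1.5025 to 3.55) and 1.78-fold in raw counts (1.16 to 2.75). The highest single negative control of Raji read 47 raw counts, the most in any line, and the level of miR-125b there rests on 64. Jurkat and K562 passed their thresholds by 4.82 and 1.68 normalized counts with intervals that covered them, and U937 was below.

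let-7c, which follows miR-99a on chromosome 21, was detected in every line but K562, with raw counts of 115 (Meg-01, 94.9 to 138), 67 (Jurkat), 61 (Raji), 50 (U937) and 33 (K562). The ratio of let-7c to miR-99a was 0.263 in Meg-01. In normalized counts Raji and Meg-01, with 96.3 and 85.3, did not differ beyond counting error (Raji over Meg-01 1.13, 0.814 to 1.55), whereas in raw counts Meg-01 was 1.89-fold above Raji (1.37 to 2.62). For miR-99a Meg-01 was above Raji on both scales. The let-7c target differs from let-7a by the 1 base G19A (let-7c base first), and the part of let-7a in these counts was not tested.

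**Figure D3:**
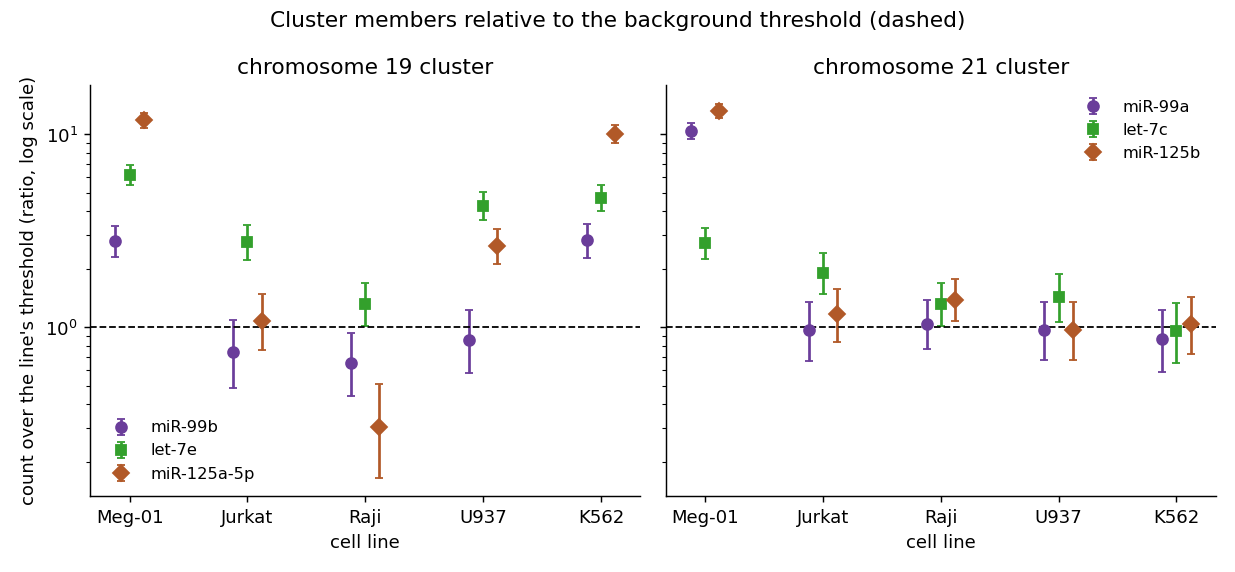
Counts of the 3 miRNAs of the chromosome 19 cluster (left) and of the chromosome 21 cluster (right) in each line (x axis), as a ratio to the background threshold of that line (y axis, log scale; dashed line at 1), with 95% Poisson intervals. miR-125b is drawn with the chromosome 21 cluster, but its probe cannot tell that copy from the chromosome 11 copy. miR-125a-5p is at 11.9 and 10.1 times the threshold in Meg-01 and K562, while miR-99a and miR-125b reach 10.4 and 13.3 times in Meg-01 and lie near or below 1.40 times in the other lines.

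hsa-miR-100, which pairs with miR-125b in the chromosome 11 cluster, was not detected in any line at these thresholds. Its raw counts were 40 (Meg-01), 27 (Raji), 26 (K562), 24 (Jurkat) and 19 (U937). In normalized counts no neighboring pair of lines in their order differed beyond counting error, but Raji was 2.21-fold above Jurkat (1.22 to 3.99) and 2.15-fold above U937 (1.15 to 4.09). Before scaling those ratios were 1.125 (0.625 to 2.04) and 1.42 (0.761 to 2.70), not beyond counting error. In raw counts Meg-01 was 2.11-fold above U937 (1.19 to 3.85), and all these values were below the thresholds. Meg-01 came closest, at 0.950 times its threshold. In that line miR-99a had 10.9 times the raw count of miR-100 (7.89 to 15.5), with miR-100 at background. miR-125b had 14 times the raw count of miR-100 (10.2 to 19.8). The third miRNA of this cluster, let-7a, also comes from hairpins on chromosomes 9 and 22 and was detected in all 5 lines, and its count is not specific to this locus.

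The balance of the miR-125 forms differed between Meg-01 and K562, the lines with the most miR-125a-5p. The raw count of miR-125a-5p was 0.893 times that of miR-125b in Meg-01 (0.790 to 1.01) and 9.72 times in K562 (6.89 to 14.1). The same ratio was 2.71 for U937 (1.81 to 4.14), 0.927 for Jurkat (0.580 to 1.48) and 0.219 for Raji (0.113 to 0.394). Meg-01 thus held both forms at near-equal counts, U937 and K562 held miR-125a-5p with miR-125b at or near background, and in Raji the only form above background was miR-125b. Probes may count their targets with unequal efficiency, so a ratio within a line is not a ratio of molecules. The ratio of K562 was 10.9 times that of Meg-01 (7.52 to 16.1), with miR-125b of K562 near background. In Jurkat the intervals of both counts covered the threshold, so its ratio near 1 is not told apart from background.

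Subtraction of background gave a larger difference whose size rests on a few counts. miR-125b in K562 exceeded the threshold by 1.68 normalized counts, and the subtracted ratio there, 229, rests on that value. With the subtracted value of miR-125b entered at the threshold itself, miR-125a-5p was at least 9.11-fold above miR-125b in K562. In Meg-01 the subtracted ratio was 0.884. The targets of both probes differ by an edit distance of 3, and the miR-125b probe read 36 raw counts in K562, where miR-125a-5p read 350.

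**Figure D4:**
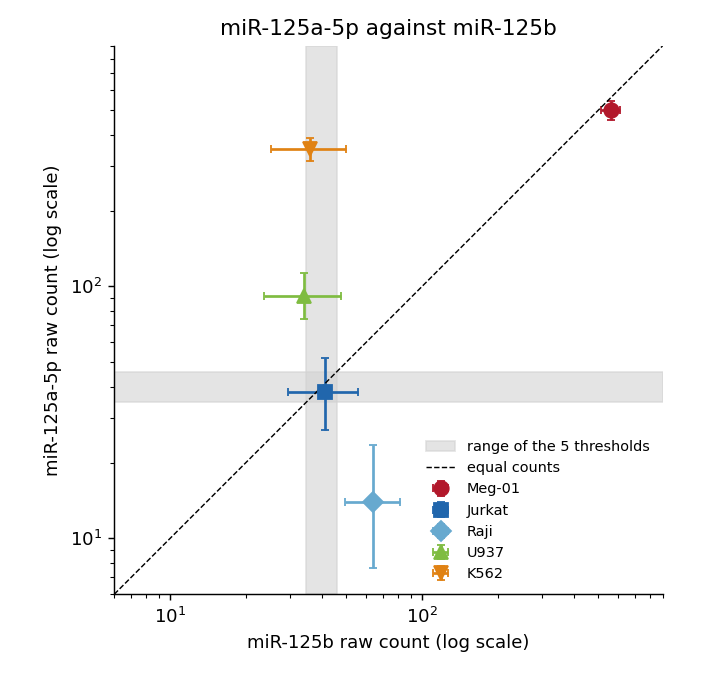
Raw counts of miR-125a-5p (y axis) against miR-125b (x axis), both on log scales, in the 5 lines, with 95% Poisson intervals, grey bands for the range of the 5 thresholds (34.6 to 45.9) and a dashed line at equal counts. Meg-01 lies near the line at 560 and 500, K562 and U937 lie above it with miR-125b at 36 and 34, inside and just under the grey band, and Raji lies below it.

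The miR-99/100 seed was also divided differently in Meg-01 and K562. Summed over miR-99a, miR-99b and miR-100 after subtraction, its signal was 349 normalized counts in Meg-01, 83.9% from miR-99a and 16.1% from miR-99b, and 77.5 in K562, all from miR-99b, with no signal above the threshold in U937. For the miR-125 seed the sum was 723 in Meg-01, 53.1% from miR-125b, 387 in K562, 99.6% from miR-125a-5p, and 59.6 in U937, all from miR-125a-5p. These sums take the probes as equally efficient and set values at or below the threshold to 0. The ratio of miR-99b to miR-99a was 0.270 in Meg-01 and 3.27 in K562, with miR-99a of K562 at background. The conditional estimate of that difference was 12.04-fold (7.51 to 19.8).

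miR-99a and miR-125b ranked high among all probes for their excess in Meg-01. For the 178 human probes detected in Meg-01, the normalized count was divided by the highest count of the other 4 lines, with no value entered below its threshold. A ratio above 2 was found for 13 probes, or 7.30%, and for 2 of the 4 members detected there. With Raji entered at no less than its threshold of 72.4, miR-99b, at 87.5 normalized counts in Meg-01, could not reach 2. The same floor kept other probes with low counts in Meg-01 from reaching 2, which holds down the 7.30%. The same ratio for K562 exceeded 2 for 6.11% of its 180 detected probes and for no member. Of the members detected in K562, only miR-125a-5p was high enough to reach 2 against that floor. Between these lines alone, Meg-01 exceeded K562 more than 2-fold for 12.4% of 225 probes detected in either, again miR-99a and miR-125b, and K562 exceeded Meg-01 so for 17.3% and for no member. miR-99a ranked 3 with 4.28 and miR-125b ranked 5 with 4.11, both over Raji, the line next to Meg-01 in the order. miR-125a-5p and miR-99b had 0.866 and 0.730, with K562 the higher line. Before scaling, the ratios of miR-99a and miR-125b over Raji were 9.10 (6.75 to 12.5) and 8.75 (6.75 to 11.5). Other probes with the highest ratios were miR-377, miR-495 and miR-376c, all encoded on chromosome 14.

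**Figure D5:**
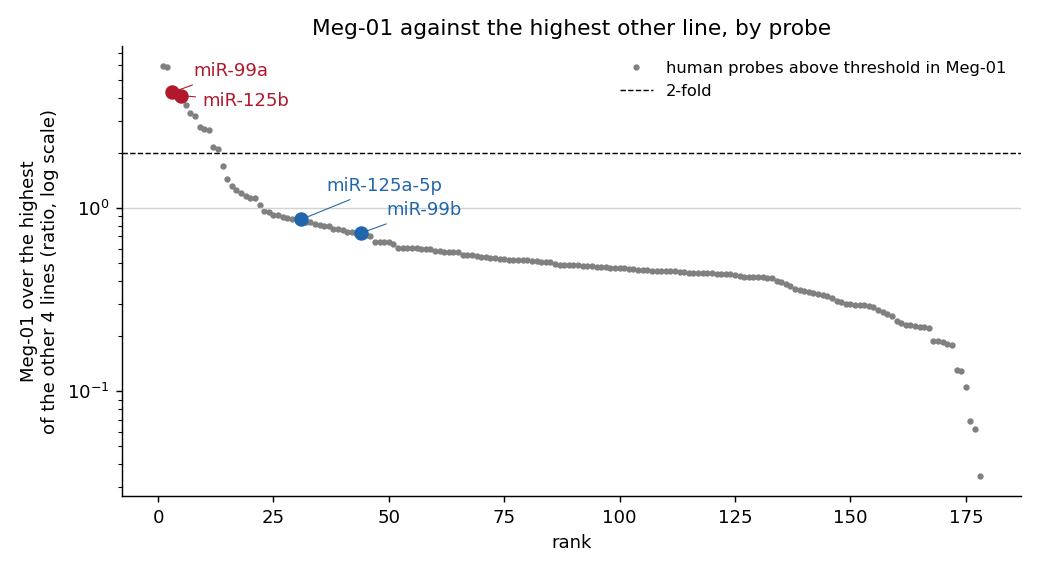
Ratio of Meg-01 to the highest of the other 4 lines in normalized counts (y axis, log scale) for the 178 human probes detected in Meg-01, ordered by rank (x axis), with a dashed line at 2-fold. miR-99a and miR-125b lie at ranks 3 and 5, and miR-125a-5p and miR-99b at ranks 31 and 44, below 1.

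The profiles were also compared across the 5 lines by the root mean square difference of log2 normalized counts, centred on the mean of the lines and with no value below its threshold, over the human probes detected in 2 or more lines. For miR-99a the nearest of 200 probes was miR-125b, with a difference of 0.16, and for miR-125b it was miR-99a, where the median probe differed by 1.42 and 1.51. MIR99A and MIR125B2 lie over 51 kb apart on chromosome 21. The next nearest to both were miR-431 and miR-136, from chromosome 14, with 309 and 387 raw counts in Meg-01. For miR-99b the nearest were miR-486-3p (0.21), miR-451 (0.31) and miR-151-5p (0.33), and let-7e of its own cluster came in place 14. For miR-125a-5p the nearest were miR-486-3p (0.74), miR-1274b (0.77) and miR-144 (0.79), and miR-99b came in place 5. In the other direction miR-125a-5p came only in place 117 for miR-99b, with a difference of 0.87 against a median of 0.81. miR-451, miR-144 and miR-486 are known as erythroid miRNAs. Most values behind these distances were at or near the thresholds, and the distances are given as a description.

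The contrast on which the study chose miR-125a-5p was the level in Meg-01 and K562 against that in Jurkat and Raji. Expressed as the lower of the first pair over the higher of the second, in subtracted values with undetected lines at their threshold, it exceeded 2 for 9.02% of the 133 human probes detected in Meg-01 and K562. A detected line thus entered only its excess over the threshold and an undetected line the whole threshold, which also affects the 9.02%. Of the 3 members detected in Meg-01 and K562, only miR-125a-5p exceeded 2, with at least 4.69, or 12.1 before subtraction. As the study chose miR-125a-5p on this contrast in these lines, its value is a description and no independent support. With Raji left out, the log2 value of this contrast moved from 2.23 to 7.14, which rests on 2.40 normalized counts above the threshold in Jurkat. miR-99b, its cluster partner, gave at least 0.777 with Raji entered at its threshold of 72.4, and 1.85 before subtraction. With 56.3 counts left after subtraction in Meg-01, miR-99b could not reach 2 against that 72.4. The log2 value of miR-99b went from -0.36 to 0.997 without Raji. It was 2.74 with the mean of the negative controls subtracted in place of the threshold, a setting in which miR-99b also exceeded 2-fold. Its direction also depended on scaling, with 0.467 (none), 0.397 (positive controls), 0.256 (housekeeping probes), -0.187 (total human counts) and -0.276 (100 highest chosen in each line). Against Jurkat, the K562 count of miR-99b was 5.72-fold higher (3.68 to 9.19) and the Meg-01 count 4.18-fold higher (2.71 to 6.66), with Jurkat at background. let-7e, with Raji detected and entered at 23.9 after subtraction, gave 3.15, or 2.002 before subtraction. miR-125b gave 0.0588, or 0.436 before subtraction, from values 1.68 above the threshold in K562 and 28.6 above it in Raji. Its log2 value was -4.09, and -1.52 without Raji.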

How the data were processed

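Total RNA was extracted with Trizol, and miRNAs were counted with the nCounter human miRNA assay. The study used kit versions v1 and v2, without saying which applied to these lines. The authors deposited raw counts of 753 probes per line, control probes included, before any normalization. A second deposited table holds a background-subtracted signal, in which each line's counts are lowered by a fixed amount and floored at 0. That amount matched the line's negative control mean in Meg-01, Raji and U937, but was 16.25 against a mean of 22.75 in Jurkat and 22.75 against 20.25 in K562. It was used as an alternative.

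As in the study, scaling used the top 100 miRNAs (by mean raw count over the lines, geometric mean), and the threshold was 2 SD above the negative control mean. Intervals are exact Poisson for counts, conditional binomial for ratios and conditional odds ratios for ratios of ratios (Python 3.11.15, scipy 1.17.1). With 1 sample per line, no p-value was computed. The excess of Meg-01 over the other lines, for well-measured probes, and the coverage of the ratio intervals were tested on simulated counts. The scaling factors were taken as known there, and the subtracted ratios and the contrast were not part of that test. Each line is 1 group, from the labels.

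The members, lists and comparisons were chosen with earlier results of these data known. The text names the members, the let-7 miRNAs of their clusters and, for each member detected in 2 or more lines, the 3 probes nearest in profile. miR-377, miR-495 and miR-376c were named after their values were seen. The panel has no other probe named for an arm of the members' hairpins. All 6 members matched a RefSeq mature sequence, and exon positions were not used here. Alternatives were other scalings, thresholds and subtractions.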

Additional observations from a re-analysis of the deposited data

How the results depend on the processing

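Counts at this depth limit all values near background: with thresholds of 34.6 to 45.9 raw counts, a level is measured only where a probe clears them, as in 8 of 30 combinations of member and line. Each line is 1 sample, and variation between cultures was not measured. No paired analysis was possible because each line has 1 sample. The threshold decided how many combinations were detected, 13 at the mean plus 2 SD, 17 above the highest negative control, 28 above the mean of the negative controls, 28 with a minimum of 20 raw counts, 23 with 30, 28 in the deposited signals and 8 where the lower Poisson bound had to pass. Scaling decided whether K562 or Meg-01 was highest: of the 4 members with an interval above the threshold in Meg-01, 2 were highest there, and 4 with no scaling, with scaling to the positive controls and with scaling to the total human counts. The log2 ratio of Meg-01 over K562 was -0.45 for miR-99b, and 0.27, 0.14 and 0.21 under those settings in the same order. It was -0.21 for miR-125a-5p, and 0.51, 0.39 and 0.45. For miR-99a and miR-125b this ratio stayed above 0 under all 5 other scalings. The highest line exceeded the second beyond counting error for 4 of 6 members, for 2 with the 100 highest chosen in each line, and for 3 to 5 with the other scalings. The log2 difference between K562 and Meg-01 in the ratio of miR-125a-5p to miR-125b was 8.02 after subtraction, 3.44 without it, 4.56 with the mean of the negative controls subtracted, 4.80 in the deposited signals and 3.36 with the threshold as the lowest subtracted value. In each of these K562 was higher, and the size rests on how near background miR-125b was in K562. The same difference for miR-99b to miR-125a-5p was 0.28, and 0.18 to 0.25 under the alternatives set at the start. The contrast of Meg-01 and K562 with Jurkat and Raji exceeded 2 for 1 member, and for 2 with the mean of the negative controls subtracted, which added miR-99b. No subtracted ratio between probes within Raji or Jurkat is given, since no member exceeded the threshold there by the size of that threshold. The threshold as the lowest subtracted value and the contrast without Raji were chosen after seeing the data.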
